A study of Mus musculus with 10 samples.

Results

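The genes described here encode the heme-binding proteins Hebp1 and Hebp2, the enzymes that make and break down heme (Alas1, Fech, Hmox1, Hmox2, Blvra and Blvrb) and the chains of the iron store ferritin (Fth1 and Ftl1). Members were taken by gene symbol from a list of 10. The table of 12575 genes held 9 of them, and Hmox1 was not analysed here. All 9 were above the low-value filter. Hebp2 was chosen by its difference between the groups in these same libraries, so its values are given as a description without a test. The other 8 were selected by function with earlier results of these data known. RNA of cerebral cortex was measured in 5 BMAL1 aKO mice (Aldh1l1-Cre ERT2;Bmal1 fl/fl) and 5 Cre- mice (Bmal1 fl/fl without Cre). All were C57BL/6 mice of both sexes, labelled as 4 months old (the study's methods give a later age), and all had received tamoxifen by gavage. Bmal1 was therefore floxed in both groups, and only the BMAL1 aKO mice carried the tamoxifen-dependent Cre driven by the astrocyte promoter Aldh1l1, so neurons and other cells of the tissue kept the gene.

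Heme is an iron-containing ring that is built partly in mitochondria, with Alas1 at the rate-limiting first step in non-erythroid cells and Fech inserting the iron at the last. Heme oxygenases open the ring and release iron, biliverdin and carbon monoxide, biliverdin reductases turn biliverdin into bilirubin, and freed iron is stored in a shell of ferritin heavy and light chains. The circadian clock touches this pathway, because the clock proteins REV-ERBα, REV-ERBβ and NPAS2 bind heme, and BMAL1 pairs with CLOCK or NPAS2 to bind a short DNA element, the E-box.

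Libraries held 21844770 to 48295715 reads in the Cre- group and 23127338 to 47964460 in the BMAL1 aKO group. Arntl, the gene symbol of Bmal1, did not pass the test in whole cortex (log2 fold change 0.01, limma adjusted p = 0.932), whereas Fabp7, which encodes a lipid carrier of astrocytes, stood at a log2 fold change of 3.53. Of 10 astrocyte markers 1 passed, the gap junction gene Gja1 (log2 fold change 0.44, limma adjusted p = 0.0273). No marker of neurons, oligodendrocytes, microglia or endothelium passed. Over all genes only 0.334% passed, so these counts say little about the cells present. Positive and negative log2 fold changes numbered 7 and 3 for astrocytes (lowest Aqp4, -0.20), 9 and 1 for microglia and 8 and 0 for oligodendrocytes. They numbered 6 and 2 for endothelium and 3 and 5 for neurons. In bulk tissue, more cells of a type and more RNA per cell cannot be told apart. Cre- replicates 3 and 4 had the lowest shares of reads on mitochondrial-encoded genes, 6.19% and 9.29%, against 13.4 to 19.9% in the other libraries. The red blood cell genes Hba-a1, Hba-a2 and Hbb-bs summed to 2.88 to 30.5 CPM (counts scaled to 1 common total for every library) in Cre- and 5.71 to 103.3 CPM in BMAL1 aKO libraries, with the highest sum in BMAL1 aKO replicate 3, and the red blood cell markers Hbb-bt, Alas2 and Slc4a1 were not in the table.

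The promoters of the heme-binding pair are shown because the E-box is the element that BMAL1 binds and Hebp2 was the member chosen for its difference, with Hebp1 as its nearest relative. Each run is the RefSeq sequence of the 250 bases before the transcription start (GRCm38.p6, minus strand, written 5′ to 3′), at chr6:135168216-135168465 for Hebp1 and chr10:18546077-18546326 for Hebp2. Capitals mark the E-box CACGTG.
Hebp1: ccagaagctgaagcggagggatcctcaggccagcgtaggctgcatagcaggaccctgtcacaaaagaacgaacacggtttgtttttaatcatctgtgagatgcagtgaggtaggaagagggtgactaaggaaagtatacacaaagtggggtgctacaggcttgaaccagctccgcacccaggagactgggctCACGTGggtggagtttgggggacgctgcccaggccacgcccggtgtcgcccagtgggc
Hebp2: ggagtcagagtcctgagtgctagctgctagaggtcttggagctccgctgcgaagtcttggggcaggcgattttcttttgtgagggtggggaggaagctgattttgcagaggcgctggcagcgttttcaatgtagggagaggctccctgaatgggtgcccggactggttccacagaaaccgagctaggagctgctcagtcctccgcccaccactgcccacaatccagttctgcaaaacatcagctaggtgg
The only E-box among the members stood in Hebp1, 53 bases before the RefSeq start, and Hebp2 had none in this window. That start of Hebp1 lies inside the gene as GENCODE annotates it, which reaches to 135198022 on the minus strand. It is therefore not the outermost annotated start of Hebp1. Promoters were listed for 8 of the 9 members (13 promoters, with none for Fech). The 6 letters, which read the same on both strands, were found in 6.04% of 32536 promoters and in 10.1% of the 9708 genes of the table with a promoter. The core of the antioxidant response element, TGACNNNGC on either strand, was present in 10.2% of all promoters, in 13.9% of the genes of the table with a promoter and, among the members, in Blvra alone, 41 bases before the start. A match of letters does not show that a factor binds there.

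Hebp2, also called SOUL, is a small member of the heme-binding protein family. It had Cre- values of 1.76, 2.38, 1.92, 2.32 and 2.003 CPM (replicates 1 to 5) beside BMAL1 aKO values of 9.51, 7.13, 4.88, 9.77 and 6.09 CPM (replicates 1 to 5). The lowest BMAL1 aKO library lay above the highest Cre- library, and the BMAL1 aKO libraries were the more spread. Means were 2.08 ± 0.266 and 7.48 ± 2.13 CPM (SD, n = 5 in each), a ratio of 3.60. The fitted log2 fold change on the log2(CPM + 0.5) scale was 1.65 (SE 0.17, which does not allow for the choice of the gene), or 3.13-fold. These values rest on 52 to 456 reads per library. The gene (ENSMUSG00000019853, chr10:18539498-18546076, minus strand, GRCm38) has 3930 bases of exon and overlaps no other annotated gene, so that no reads of a neighbour are shared with it.

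Within the BMAL1 aKO group, the levels of Hebp2 were ordered by sex as read from Xist, the RNA of the inactive X chromosome, which was at 986.5 CPM or above in 2 libraries per group and at 1.42 CPM or below in the others. The 2 Xist-high BMAL1 aKO libraries held the highest values, 9.51 and 9.77 CPM, and the 3 Xist-low ones 4.88 to 7.13 CPM. Cre- libraries did not show this order: the 2 Xist-high ones held 1.92 and 2.38 CPM and the 3 Xist-low ones 1.76 to 2.32 CPM. The ratio of means was 4.49 in Xist-high and 2.98 in Xist-low libraries. The difference between these ratios was not tested, and with Xist as a covariate the log2 fold change of Hebp2 was 1.44.

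Genes most like Hebp2 over the 10 libraries were found by the root mean square difference of log2 values, each taken relative to its own Cre- mean. The nearest was Gm10561 (0.369), followed by P4ha3, a prolyl hydroxylase subunit that acts on collagen (0.374), Dbi, the acyl-CoA and diazepam binding protein (0.383), Egfl6 (0.582) and the membrane metalloproteinase Mmp14 (0.600). None of the 5 is on the heme and iron lists described here. Because values were taken relative to the Cre- mean, the measure includes the difference between the groups, by which Hebp2 was chosen. The other heme and iron genes tested had log2 fold changes from -0.55 (Steap3) to 0.52 (Trf), against 1.65 for Hebp2. Genes with such small differences could hardly be among the nearest, so no conclusion is drawn from their absence or from the ranks of the members. Dbi ran from 65.2 to 105.8 CPM in Cre- and from 131.6 to 234.8 CPM in BMAL1 aKO libraries, and P4ha3 from 5.32 to 10.7 and from 11.98 to 22.5 CPM. Of the members, Fth1 was closest to Hebp2, at rank 404 (0.955), Hebp1 stood at rank 2678 (1.12) and Ftl1 at rank 12546.

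**Figure D1:**
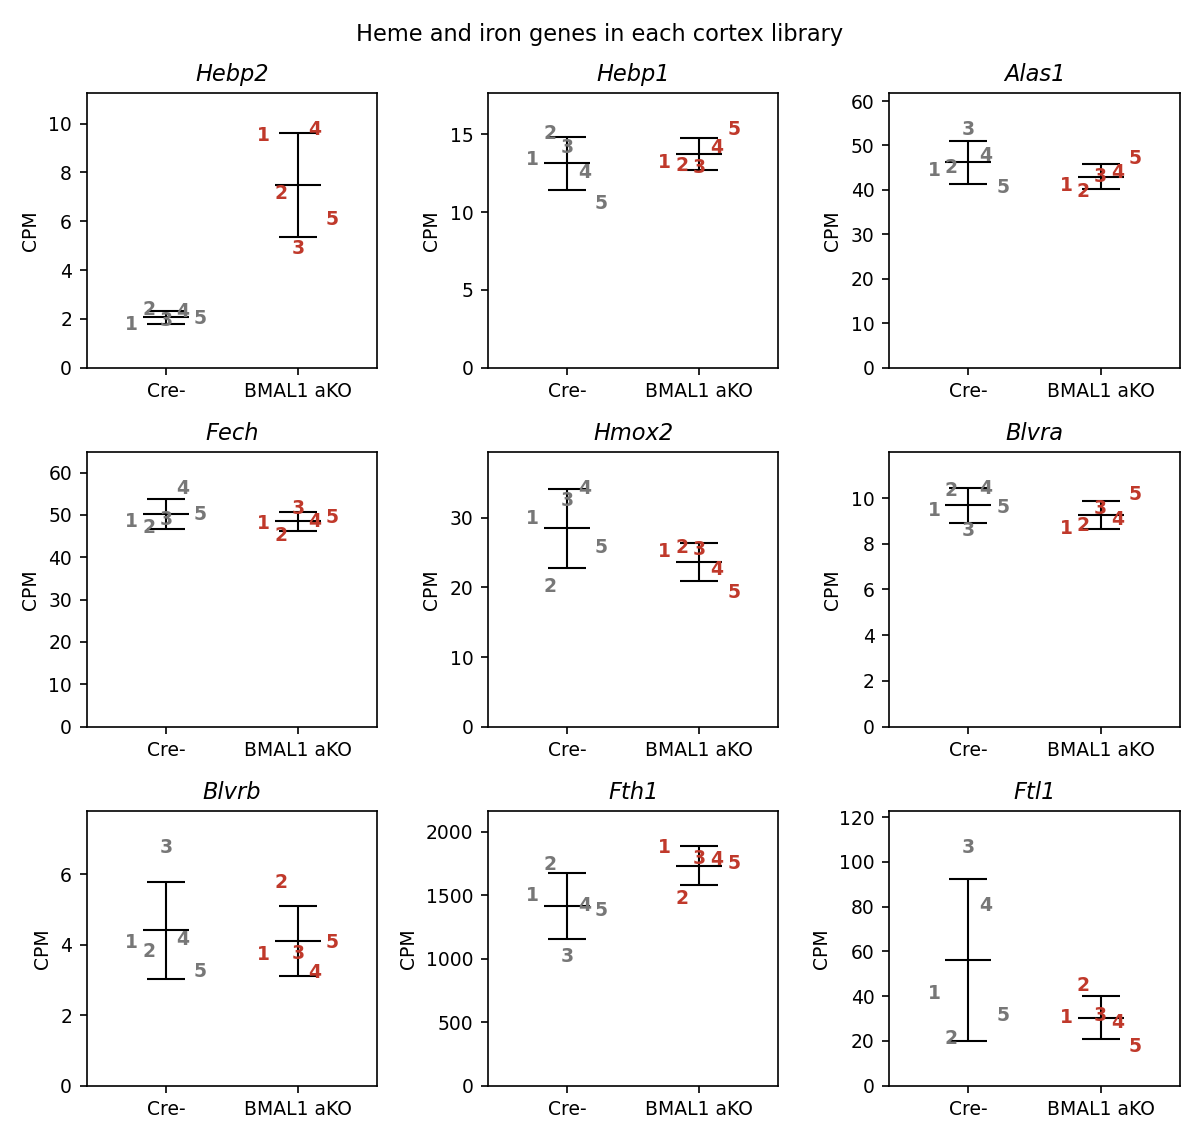
CPM (vertical axes, from 0) of the 9 members in each library, with digits giving the replicate number, grey for Cre- and red for BMAL1 aKO, and bars giving the mean and SD of 5 libraries. The groups are apart for Hebp2 (1.76 to 2.38 against 4.88 to 9.77 CPM) and overlap for each of the other 8, and Cre- replicate 3 is the highest for Ftl1 and Blvrb and the lowest for Fth1.

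Hebp1 binds heme and is also the source of a peptide that attracts white blood cells. It had Cre- values of 13.4, 15.1, 14.1, 12.5 and 10.6 CPM (replicates 1 to 5) beside BMAL1 aKO values of 13.2, 13.02, 12.9, 14.2 and 15.3 CPM (replicates 1 to 5). The groups overlapped, with Cre- replicates 4 and 5 below every BMAL1 aKO library and the other 3 Cre- libraries within the BMAL1 aKO range. The log2 fold change was 0.08 (SE 0.09, 95% confidence interval -0.11 to 0.28, limma adjusted p = 0.649; exact two-sided permutation test p = 0.532), an interval that reaches from a fold of 0.924 to 1.21. Hebp1 (chr6:135137522-135198022, minus strand) shares 46 of its 3711 exon bases with genes of the opposite strand, and the library kit does not mark strand.

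Read over all genes, 36 were higher and 6 lower in BMAL1 aKO at a limma adjusted p of at most 0.1, which is 0.334% of the 12573 tested. Of the 8 members other than Hebp2, 0 passed in either direction. An unadjusted p below 0.05 was found for 3 of 8 (Hmox2, Fth1 and Ftl1), against 16.8% of all genes tested (2117 genes). These values are from the fit with sample quality weights and depend on them, with by far the largest weight (7.19) on Cre- replicate 1. Without weights 602 of the 12573 genes had an unadjusted p below 0.05. Hmox2, Fth1 and Ftl1 each then had a limma adjusted p of 0.803. The median log2 fold change of the 8 was -0.02, beside -0.04 over all genes. The groups did not overlap for Hebp2 alone among the 9 members, while they did not overlap for 1% of all genes.

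Both enzymes of heme synthesis lay close together in the groups. Alas1, which joins glycine and succinyl-CoA in the first step, had Cre- values of 44.3, 45.0, 53.6, 47.7 and 40.6 CPM (replicates 1 to 5) beside BMAL1 aKO values of 41.1, 39.6, 43.0, 44.0 and 47.0 CPM (replicates 1 to 5). For Alas1 the weighted log2 fold change was -0.02 (SE 0.07, limma adjusted p = 0.879). The permutation test takes the unweighted difference of mean log2 values, which was -0.10 (exact permutation p = 0.222). Of its exon bases 465 are shared with 4930500F10Rik on the opposite strand. Fech, ferrochelatase, ran from 47.0 to 56.3 CPM in Cre- and from 45.2 to 51.4 CPM in BMAL1 aKO libraries. Fech had a weighted log2 fold change of -0.01 (SE 0.06, limma adjusted p = 0.972) and an unweighted one of -0.05 (exact permutation p = 0.452). The 95% interval of Fech went from a fold of 0.912 to 1.09, the narrowest of the 9.

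On the side of heme breakdown, Hmox2, the constitutive heme oxygenase of brain, had Cre- values of 29.9, 20.1, 32.5, 34.2 and 25.7 CPM (replicates 1 to 5) beside BMAL1 aKO values of 25.2, 25.7, 25.5, 22.6 and 19.3 CPM (replicates 1 to 5). The highest 3 values were Cre- libraries, but Cre- replicate 2 was the second lowest of all. The log2 fold change was -0.30 (SE 0.10, limma adjusted p = 0.192; exact permutation p = 0.135). It passed the threshold in 1 alternative, without BMAL1 aKO replicate 3 (log2 fold change -0.37, limma adjusted p = 0.0981), a fit in which 6.71% of all genes passed. That library held the highest red blood cell sum, but its Hmox2 value (25.5 CPM) was close to those of BMAL1 aKO replicates 1 and 2. The part of blood in these values was not tested. Hmox2 was also ordered by the mitochondrial-encoded share of reads: it was at 32.5, 34.2 and 29.9 CPM in the 3 libraries with the lowest shares (Cre- replicates 3, 4 and 1) and at 19.3, 22.6 and 20.1 CPM in the 3 with the highest (BMAL1 aKO replicates 5 and 4 and Cre- replicate 2). The part of that share in the value of Hmox2 was not tested. Of its 2217 exon bases 892 are shared with Cdip1 on the opposite strand, so reads of the pair cannot be told apart there.

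The biliverdin reductases did not separate the groups. Blvra ranged from 8.56 to 10.4 CPM in Cre- and from 8.65 to 10.2 CPM in BMAL1 aKO libraries. Its log2 fold change was -0.03 weighted (SE 0.08, limma adjusted p = 0.879) and -0.06 unweighted (exact permutation p = 0.349). Blvrb, which also reduces flavins, had Cre- values of 4.06, 3.80, 6.76, 4.15 and 3.25 CPM (replicates 1 to 5) beside BMAL1 aKO values of 3.73, 5.77, 3.75, 3.20 and 4.05 CPM (replicates 1 to 5). Its log2 fold change was -0.01 weighted (SE 0.14, limma adjusted p = 0.977) and -0.08 unweighted (exact permutation p = 0.611). The highest library for Blvrb in each group was also the highest for the summed microglial markers, at 400.3 CPM in Cre- replicate 3 against 246.5 to 299.2 CPM in the other Cre- libraries, and at 335.8 CPM in BMAL1 aKO replicate 2 against 247.3 to 284.4 CPM in the others. The part of these cells in the values of Blvrb was not tested.

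**Figure D2:**
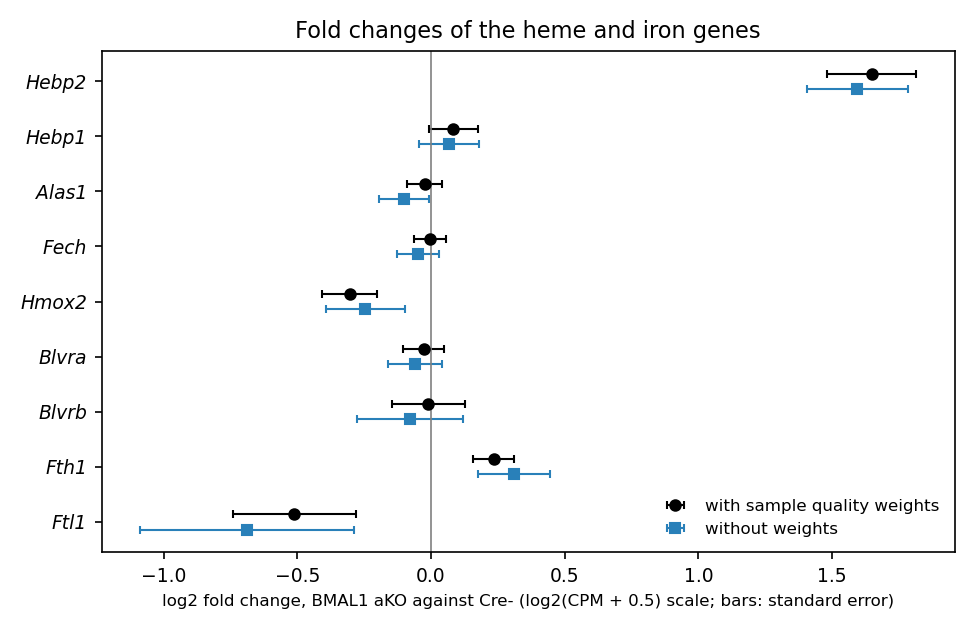
Log2 fold change of the 9 members, BMAL1 aKO against Cre-, on the log2(CPM + 0.5) scale (horizontal axis), with bars for the standard error, in black with sample quality weights and in blue without them (5 libraries per group). Hebp2 stands at 1.65 and 1.59, Fth1 at 0.23 and 0.31, Hmox2 at -0.30 and -0.25 and Ftl1 at -0.51 and -0.69, and the other 5 lie near 0, the farthest being Alas1 at -0.10 without weights.

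The ferritin chains had log2 fold changes of opposite sign, and neither passed the threshold. Fth1, the heavy chain that oxidises iron for storage, had Cre- values of 1499, 1743, 1019, 1421 and 1381 CPM (replicates 1 to 5) beside BMAL1 aKO values of 1876, 1471, 1785, 1777 and 1747 CPM (replicates 1 to 5). Of the BMAL1 aKO libraries 4 lay above every Cre- library, and replicate 2 lay among them. The log2 fold change was 0.23 (SE 0.08, 95% confidence interval 0.07 to 0.40), with a limma adjusted p of 0.185 and an exact permutation p of 0.0317, so Fth1 did not pass the threshold over all genes.

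Ftl1, the light chain that helps form the iron core, had Cre- values of 41.4, 21.01, 106.6, 80.4 and 31.6 CPM (replicates 1 to 5) beside BMAL1 aKO values of 30.3, 44.9, 31.3, 28.2 and 17.6 CPM (replicates 1 to 5). Only Cre- replicates 3 and 4 lay above the BMAL1 aKO range, and the highest library was 6.06 times the lowest, the widest range of the 9 members. The log2 fold change was -0.51 (SE 0.23, limma adjusted p = 0.286; exact permutation p = 0.190). Ftl1 has 3 named pseudogenes (Ftl1-ps1, Ftl1-ps2 and Ftl2-ps) and shares 355 of 1340 exon bases with Gm10252 on the opposite strand, and Fth1 has 2 named pseudogenes, so counts of both chains are uncertain where reads fit a copy.

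As for Hmox2, the levels of Ftl1 broadly fell with the mitochondrial-encoded share of reads across the 10 libraries, given here as a description. Fth1 did not follow the share in the middle of its range. It was at 1471 and 1785 CPM in BMAL1 aKO replicates 2 and 3 (14.5% and 14.6%). It was at 1381 CPM in Cre- replicate 5 (15.5%) and 1876 CPM in BMAL1 aKO replicate 1 (16.3%). Cre- replicates 3 and 4, with the lowest shares (6.19% and 9.29%), held the highest Ftl1 and, for replicate 3, the lowest Fth1. Cre- replicate 2, with the highest share (19.9%), had 21.01 CPM of Ftl1 and 1743 CPM of Fth1, values close to those of the BMAL1 aKO libraries, whose shares were 14.5 to 18.0%. Without Cre- replicate 3 the log2 fold change was -0.43 for Ftl1 (limma adjusted p = 0.504) and 0.24 for Fth1 (limma adjusted p = 0.393). With CPM scaled to reads outside the mitochondrial-encoded genes, it was -0.46 for Ftl1 and 0.27 for Fth1. What the share stands for in these libraries was not tested.

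**Figure D3:**
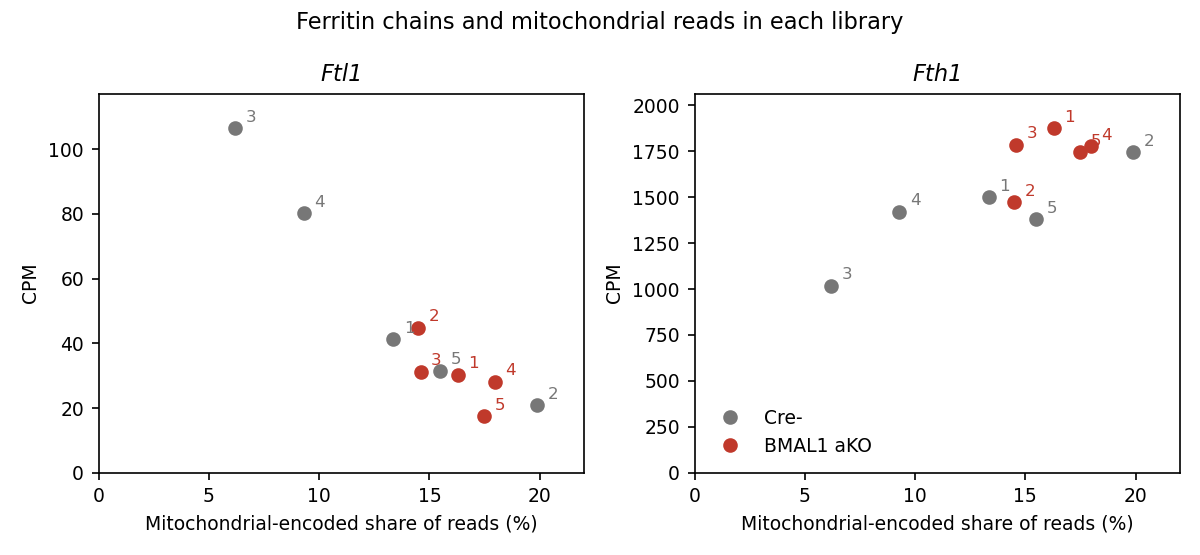
CPM of Ftl1 (left) and Fth1 (right) against the percentage of reads on mitochondrial-encoded genes in each library, grey for Cre- and red for BMAL1 aKO, with the replicate number beside each point. Ftl1 is highest (106.6 and 80.4 CPM) in the 2 libraries with the lowest shares, and Fth1 is lowest (1019 CPM) in the first of them.

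Per kilobase of annotated exon, the order of the levels was nearly the same in both groups. Fth1 led with 407.2 ± 75.2 CPM per kilobase in Cre- and 499.1 ± 44.2 in BMAL1 aKO libraries (SD, n = 5), followed by Ftl1 (41.9 ± 26.9 and 22.7 ± 7.28), Hmox2 (12.8 ± 2.56 and 10.7 ± 1.24) and Alas1 (7.49 ± 0.787 and 6.95 ± 0.461). None of these neighbours overlapped within a group. Blvra, Fech and Hebp1 came next, at 3.96, 3.63 and 3.54 CPM per kilobase in Cre- libraries, and their ranges overlapped in both groups. Blvrb (1.58 ± 0.490) and Hebp2 (0.528 ± 0.0677) were the lowest in Cre-, without overlap. In BMAL1 aKO libraries Hebp2 (1.90 ± 0.542) stood above Blvrb (1.47 ± 0.353), with ranges that overlapped.

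Other genes of heme and iron were taken from 5 lists with 63 genes, of which 55 were tested. Of these, 0 passed the threshold in either direction with limma, beside 0.334% of all genes, and their median log2 fold change was -0.02. In this weighted fit 11 of 55 had an unadjusted p below 0.05 (20%, against 16.8% of all genes). The groups did not overlap for 4 of the 55 (Nr1d1, Steap3, Heph and Ireb2, of which Steap3 and Ireb2 are named after their values were seen), all lower in BMAL1 aKO, while they did not overlap for 1% of all genes.

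Among the 9 other genes of heme synthesis tested, 7 had a positive and 2 a negative log2 fold change, from -0.06 to 0.14 (median 0.03). These signs are those of the fit with sample quality weights. Alad, the highest, was at 0.14 there but at -0.03 as an unweighted difference of mean log2 values. Cpox was at 0.13 and 0.22. The groups overlapped for each of the 9, and 0 had an unadjusted p below 0.05, against 16.8% of all genes. The lowest limma adjusted p was 0.434.

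Heme transport and heme sensing had 13 genes tested, of which 2 had an unadjusted p below 0.05 in the weighted fit, against 16.8% of all genes. Nr1d1, which encodes the heme receptor and clock repressor REV-ERBα, had Cre- values of 102.4, 94.8, 144.8, 128.9 and 106.2 CPM (replicates 1 to 5) beside BMAL1 aKO values of 92.1, 89.0, 92.3, 70.7 and 72.7 CPM (replicates 1 to 5). All BMAL1 aKO libraries lay below all Cre- libraries. The highest were Cre- replicates 3 and 4, with the lowest mitochondrial-encoded shares, and the lowest were BMAL1 aKO replicates 4 and 5, with the highest shares of their group, while Cre- replicate 2, with the highest share of all, lay above every BMAL1 aKO library. The part of the share in the value of Nr1d1 was not tested. The fitted log2 fold change of Nr1d1 was -0.35 (SE 0.09, limma adjusted p = 0.154). Its exact permutation p was 0.00794, the smallest that 5 against 5 allow and the value of every gene without overlap (126 of 12573). Nr1d1 was named for its small unadjusted p in these libraries, so this is a description. Nr1d2, encoding REV-ERBβ, had a log2 fold change of -0.21 (SE 0.09, limma adjusted p = 0.251) with groups that overlapped.

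Iron uptake and export had 10 genes tested. In the weighted fit 5 of the 10 had an unadjusted p below 0.05, 2 higher and 3 lower, against 16.8% of all genes. The count was the highest of the 5 lists, which were not compared by a test. The share over all genes depends on the weights, since without them 602 of 12573 genes had such a p. Heph, hephaestin, which oxidises iron on its way out of the cell, had Cre- values of 6.07, 6.55, 5.77, 8.13 and 7.38 CPM (replicates 1 to 5) beside BMAL1 aKO values of 4.52, 4.51, 4.53, 4.15 and 5.12 CPM (replicates 1 to 5). The groups did not overlap, and the log2 fold change was -0.44 (SE 0.10, limma adjusted p = 0.138, and exact permutation p = 0.00794). Heph, like Trf below, was named for its small unadjusted p in these libraries, so its permutation p is a description. Any gene with groups that do not overlap gets that p, as did 126 of the 12573 tested. Trf, transferrin, the iron carrier that oligodendrocytes make in brain, had means of 21.7 ± 6.72 and 29.6 ± 6.42 CPM (SD, n = 5) and a log2 fold change of 0.52 (SE 0.14, limma adjusted p = 0.159; exact permutation p = 0.0873). The summed oligodendrocyte markers ran from 3483 to 6200 CPM in Cre- and from 3996 to 5713 CPM in BMAL1 aKO libraries, and all 8 had a positive log2 fold change (median 0.18, 0 past the threshold). Their part in the value of Trf was not tested. Steap3, a reductase that acts on iron taken up with transferrin, had the lowest log2 fold change of the list, -0.55 (SE 0.16, limma adjusted p = 0.176).

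Of the 12 genes for control of iron storage and for mitochondrial iron, Glrx5, a glutaredoxin that passes on iron-sulfur clusters, was at 15.0 to 22.2 CPM in Cre- and at 18.9 to 24.0 CPM in BMAL1 aKO libraries (log2 fold change 0.30, SE 0.08, limma adjusted p = 0.176; exact permutation p = 0.0238). Pcbp2, an iron chaperone and RNA-binding protein, was at a log2 fold change of -0.25 (SE 0.09, limma adjusted p = 0.221). Ireb2, the iron regulatory protein that controls ferritin translation, had one of -0.14 (SE 0.07, limma adjusted p = 0.301). Of the 11 genes of the NRF2 list, the transcription factor that drives many oxidative stress genes and its targets, Slc7a11, the cystine importer, had the lowest unadjusted p (log2 fold change 0.37, SE 0.16, limma adjusted p = 0.286). BMAL1 aKO replicates 2 and 4 held 122.1 and 107.9 CPM of Slc7a11, and the other 3 held 57.0 to 76.2 CPM, within or near the Cre- range of 54.9 to 69.4 CPM. Nfe2l2, which encodes NRF2, was next (0.16, SE 0.09, limma adjusted p = 0.367).

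**Figure D4:**
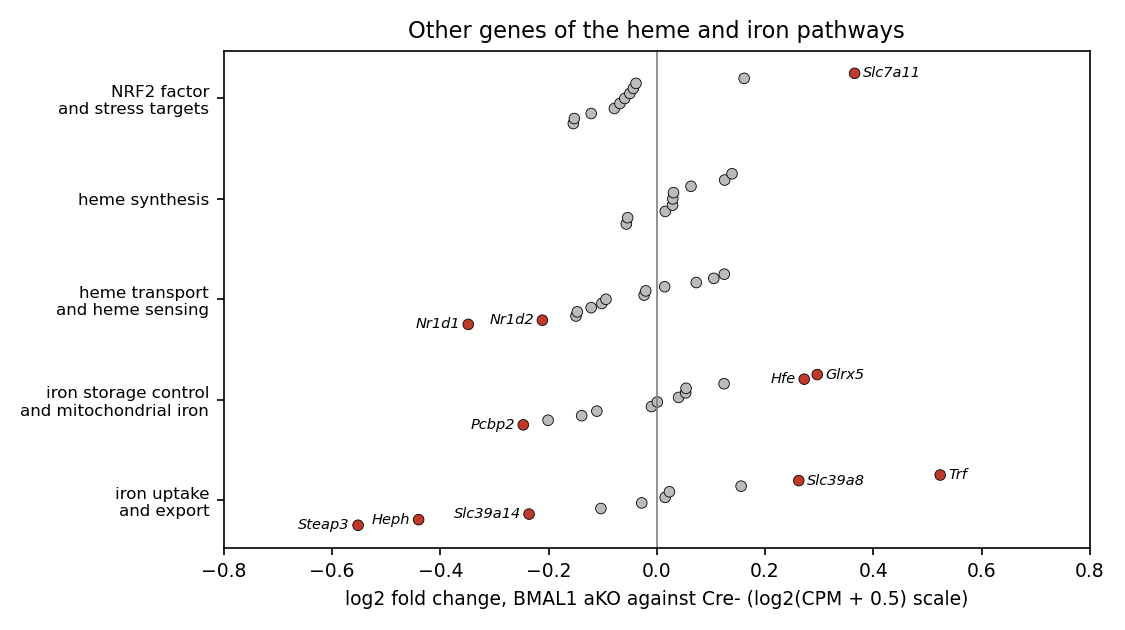
Log2 fold change, BMAL1 aKO against Cre- on the log2(CPM + 0.5) scale (horizontal axis), of the 55 other heme and iron genes tested, in 5 lists (vertical axis). Red and named points have an unadjusted p below 0.05 (11 genes, or 20%, against 16.8% of all genes), grey points do not, and 0 passed the limma threshold. Values run from -0.55 (Steap3) to 0.52 (Trf).

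Without BMAL1 aKO replicate 3, 6 of the 55 passed the threshold with limma, beside 6.71% of all genes: Steap3, Nr1d1, Heph and Slc39a14 lower, and Slc7a11 and Trf higher. Trf also passed without BMAL1 aKO replicate 2. Genes past the threshold over the whole table were 844 without BMAL1 aKO replicate 3 and 1 without Cre- replicate 1.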

How the data were processed

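Members and gene lists were chosen with earlier results of these data known, and some genes of the lists are not reported here. The deposited values are CPM, which the authors made from 10 ng of RNA (SMARTer kit without strand) by paired-end sequencing, STAR 2.5.1a on the GRCm38 assembly with Ensembl annotation and featureCounts 1.4.6-p5. They were used as deposited. The authors' RNA sequencing analysis, with its volcano plot and heatmaps, counts fewer BMAL1 aKO mice than the labels. The paper's text does not say which library was left out, so all 10 labelled libraries were used.

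A gene had to exceed 1 CPM in 4 or more libraries, which 12573 of 12575 did. The log2(CPM + 0.5) values were modelled with limma 3.58.1 (R 4.3.3) with sample quality weights (arrayWeights), trended moderated variances and Benjamini-Hochberg adjustment over all genes, threshold 0.1. The weights ranged from 0.181 (Cre- replicate 3) to 7.19 (Cre- replicate 1). The other Cre- weights were 0.454, 0.519 and 1.52 (replicates 2, 4 and 5), so the fitted Cre- means rest mostly on replicate 1. The weighted log2 fold changes, SEs and intervals share this limit. Single values were also tested with a two-sided exact permutation test of mean log2 values (SciPy 1.17.1). That test uses no weights, so its p belongs to the unweighted difference and not to the weighted log2 fold change. The fit was also run on simulated data in which all libraries had the same spread. The libraries here differ in that respect, so that run does not show how the fit behaves with such unequal weights. Every CPM value was a whole multiple of its library's smallest step within 0.01 read, which gave the depth. Annotation was GENCODE M21, in which 12550 symbols were found, with exon lengths summed over all isoforms. Promoters were RefSeq, GRCm38.p6.

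Named genes were every member and, in each list, the genes past the threshold or else the 2 with the smallest unadjusted p. For list genes named by their p, the permutation p comes from the same libraries and is a description only. Also named were every red blood cell gene in the table, the 5 genes most like Hebp2, and Arntl, Aldh1l1 and Fabp7. Aldh1l1 had a log2 fold change of -0.04 (limma adjusted p = 0.865). Marker lists of choroid plexus (summed 13.8 to 1061 CPM), meninges and border macrophages had 0 genes past the threshold, beside 0.334% of all genes. Alternatives were another threshold, pseudocount, filter, scaling and weighting, voomWithQualityWeights on the reads, a replicate block, Xist as a covariate and each library left out.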

Additional observations from a re-analysis of the deposited data

Results flagged for a closer look

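Blvrb in Cre- replicate 3 was at 6.76 CPM, far from the other 4 Cre- libraries at 3.25 to 4.15 CPM. This was 1 of 44 groups of 5 tested for a sample that stands apart, and chance flags about 1 in 20 groups.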

How the results depend on the processing

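The log2 fold change of Hebp2 was 1.44 to 1.89 over the 19 alternatives. Hebp2 was chosen by its difference and its groups do not overlap, so its direction could hardly change, and nothing is concluded from that. Among the other members, Hebp1, Hmox2, Fth1 and Ftl1 kept their direction in all 19 alternatives. Their log2 fold changes were 0.03 to 0.27, -0.37 to -0.19, 0.21 to 0.33 and -0.78 to -0.30. The 4 members near 0 changed sign in some. With TMM scaling the values were 0.01 (Blvra), 0.03 (Blvrb), 0.04 (Fech) and 0.01 (Alas1), with median-of-ratios scaling 0.002, 0.03, 0.03 and 0.01, and scaled without mitochondrial-encoded genes, an alternative chosen after seeing the data, 0.01, 0.03, 0.04 and 0.02. With voomWithQualityWeights Blvrb was at 0.08, Fech at 0.02 and Alas1 at 0.02, and with Xist as a covariate Fech was at 0.02. With each library left out in turn, Blvrb ran from -0.10 to 0.09, Fech from -0.05 to 0.01 and Alas1 from -0.08 to 0.01.

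Genes past the threshold numbered 42, and 20 at a threshold of 0.05, 4 without sample quality weights, 68 with TMM scaling, 68 scaled without mitochondrial-encoded genes, 22 with Xist as a covariate and 1 to 844 with each library left out. Members other than Hebp2 numbered 0, with 0 to 1 over the libraries left out, and the pathway genes 0, with 0 to 6. The cause was not tested. The weights did not converge in 2 fits, without Cre- replicate 1 and without Cre- replicate 5.

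With the replicate block 7 genes passed the threshold, and Blvrb was at 0.07 and Alas1 at 0.04. The numbers did not pair the libraries: same-numbered libraries correlated at -0.625 to 0.364, and 1 of 5 matched its own number best. A planned count test with edgeR was not run, and voomWithQualityWeights was the only fit on the reads. Depth limits Hebp2 most, with 52 reads in its lowest library, and Hmox1 was not analysed here.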
